A study of Rattus norvegicus with 4 samples.

Results

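The comparison described here sets hindlimb footpad skin of Sprague Dawley rats collected on day 3 of a fractionated irradiation against footpad skin collected on day 0. Sprague Dawley is an outbred laboratory stock, and the footpad is thick, hairless skin. The labels' protocol gives 10 Gy on each of days 1, 2, 4 and 5, delivered as a 9 MeV electron beam at 500 cGy per minute, so that 2 irradiations preceded collection on day 3 and none preceded collection on day 0. A separate description field dates the irradiation of the day 3 skin to day 2 and its extraction to day 3, and gives day 1 as the extraction of the day 0 skin. The groups follow the collection day in the sample titles. The labels do not state the number, age or sex of the animals, whether tissue was pooled, the time of day of collection, or whether the day 0 animals were sham treated.

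The series holds 4 libraries, 1 for each of days 0, 3, 6 and 9, and 2 of them enter this comparison. Transcripts were counted as 21-base tags that start at a CATG site, the cutting site of the enzyme NlaIII, usually the one nearest to the 3′ end. The day 3 library listed 15608 genes and the day 0 library 15236, and 17186 genes were joined by gene identifier out of 18957 in the series. Gene counts came to 1968034 on day 3 and 1982608 on day 0, so that counts of a gene in both libraries are nearly on the same scale. With 1 library a day, no spread between animals could be measured and no test was run. Each ratio of scaled counts, day 3 over day 0, is followed in parentheses by its exact 95% Clopper-Pearson interval, which covers counting error only.

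Ionising radiation breaks DNA, and the breaks stabilise the transcription factor p53. p53 switches on genes that halt the cell cycle, limit p53 itself, or start cell death. In the epidermis the dividing cells lie in the basal layer, and their descendants build keratins, junctions and a cornified envelope as they move outward. The dermis beneath is made by fibroblasts from fibrillar collagens, elastic fibres and proteoglycans, with vessels, macrophages and fat among them.

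The measured objects are the tags themselves, and those of the genes that carry the main results are shown here with the enzyme site in capitals. The first 4 are from genes higher on day 3 and the next 4 from genes lower on day 3.
Col1a1: CATGgactttggaaaacattt
Sparc: CATGcgaactctcacagtgat
Ccng1: CATGctttgggtacacctttc
Bbc3: CATGatttttgtatgtttcct
Krt10: CATGagaaaccaatacgaaca
Krt24: CATGgaactgaggcgcacagt
Nr1d1: CATGcattccgagaagctgct
Stmn1: CATGaaaaagaagtgctccag
The Col1a1 tag was read 15585 times on day 3 and 1548 times on day 0, and the Sparc tag 35113 times on day 3 and 4016 times on day 0. The Ccng1 tag had 1818 copies on day 3 and 255 on day 0, and the single tag of Bbc3 had 204 on day 3 and 23 on day 0. On the lower side the Krt10 tag had 4614 copies on day 3 and 13391 on day 0, the Krt24 tag 552 on day 3 and 3760 on day 0, the Nr1d1 tag 106 on day 3 and 389 on day 0, and the Stmn1 tag 28 on day 3 and 164 on day 0. Col1a1 also had an independent count from its tag nearest the 3′ end, CATGtggaaatgacccaacgc, with 5740 copies on day 3 and 297 on day 0.

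Both libraries carried the defining genes of plantar skin. Krt9, the keratin of palm and sole epidermis, had 559 counts at day 3, against 153 at day 0, and Krt1 of the suprabasal layers had 23380 counts at day 3, against 21013 at day 0. The hair keratin Krt31 had 0 counts at day 3, against 3 at day 0. The libraries also stood apart in ways that the groups do not state. Eif2s3y, a Y-linked translation factor gene, had 118 counts at day 3, against 0 at day 0, and Y-linked Kdm5d had 25 counts at day 3, against 0 at day 0. The row named Ddx3y, with 739 counts at day 3, against 1029 at day 0, carries the description of a human DDX3 protein and was not read as Y-linked. Sex is not in the labels, and sex and day cannot be told apart in these 2 libraries.

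Some transcripts were read through different tags in the 2 libraries. Among 294 pairs of gene tags that differ by 1 base, both libraries holding 30 or more copies of the pair, the share of the first tag differed by at least 50 percentage points between day 3 and day 0 in 30 pairs. In 17 of these 30 the second tag, read on day 0, was at 6 copies or fewer in each of the day 3, day 6 and day 9 libraries. In 2 the first tag was read on day 3 and was at 3 copies or fewer in the other libraries. A pair in the mitochondrial transcript of cytochrome c oxidase subunit II and one in Metrnl, which encodes a secreted meteorin-like protein, show these patterns. A pair in Cdkn1a, which shows neither, is printed beside them. The differing base is in capitals, and positions are counted from 1 at the 5′ end of the tag.
Cytochrome oxidase II, first tag: catgagccAtcccttcactag
Cytochrome oxidase II, second tag: catgagccGtcccttcactag
Metrnl, first tag: catgctgctctgaccccttaC
Metrnl, second tag: catgctgctctgaccccttaG
Cdkn1a, first tag: catgtattttggtcccCtccc
Cdkn1a, second tag: catgtattttggtcccTtccc
The cytochrome oxidase II pair differs by A9G, and its first tag had 4345 copies on day 3 and 2 on day 0, against 2 on day 3 and 3606 on day 0 for the second. Both tags together differed by a ratio of 1.20 (1.15 to 1.25), although the gene table lists them in separate rows. Other mitochondrial pairs did not add up to like levels: 6 of the 30 pairs begin in rows described as cytochrome oxidase subunit I, and their tags together had ratios of 1.56 to 18.1. The most abundant of these, which differs by T18C, had 36837 copies of the first tag on day 3 and 0 on day 0, and 3 copies of the second on day 3 and 5387 on day 0, a ratio of 6.80 (6.61 to 7.0) for both together. The Metrnl pair differs by C21G, with 416 copies of the first tag on day 3 and 0 on day 0, and 0 copies of the second on day 3 and 115 on day 0. The Cdkn1a pair differs by C17T and is not among the 30. Its first tag had 1100 copies on day 3 and 142 on day 0, and its second had 0 on day 3 and 118 on day 0. The second Cdkn1a tag also had 1206 copies on day 6 and 457 on day 9. Where both tags stand under 1 gene, as in Metrnl and Cdkn1a, the gene count adds them. The day 0 library thus differed from the day 3 library in the mitochondrial sequences read as well as in Y-linked transcripts, and neither can be told apart from the day.

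A size rule set which genes count as higher or lower on day 3: a ratio 2-fold or more from 1, 50 or more counts in 1 of the libraries, and 1 outside the interval. Of 5342 genes with enough counts, 456 were higher (8.54%) and 421 lower (7.88%), 16.4% in all. Most of these differences were modest, with a median fold of 2.63 among the higher and 2.42 among the lower genes. At least 4-fold differences numbered 76 higher and 39 lower genes, and at least 8-fold differences 19 higher and 13 lower. The higher genes together took a scaled level of 143066 CPM (counts per 1000000) on day 3 and 36748 on day 0, and the lower genes 41338 on day 3 and 103163 on day 0. The rule chose these genes by the same counts, so the direction of the sums and the least size of the folds follow from it. Rows of switched mitochondrial tags are included. A cytochrome oxidase I row had 41472 counts at day 3, against 5855 at day 0, and the row of the second cytochrome oxidase II tag 298 counts at day 3, against 3846 at day 0. The share past the rule was 17.3% among genes with 50 to under 100 counts, 14.4% with 200 to under 500, and 31.8% of the 22 genes with 10000 counts or more.

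**Figure D1:**
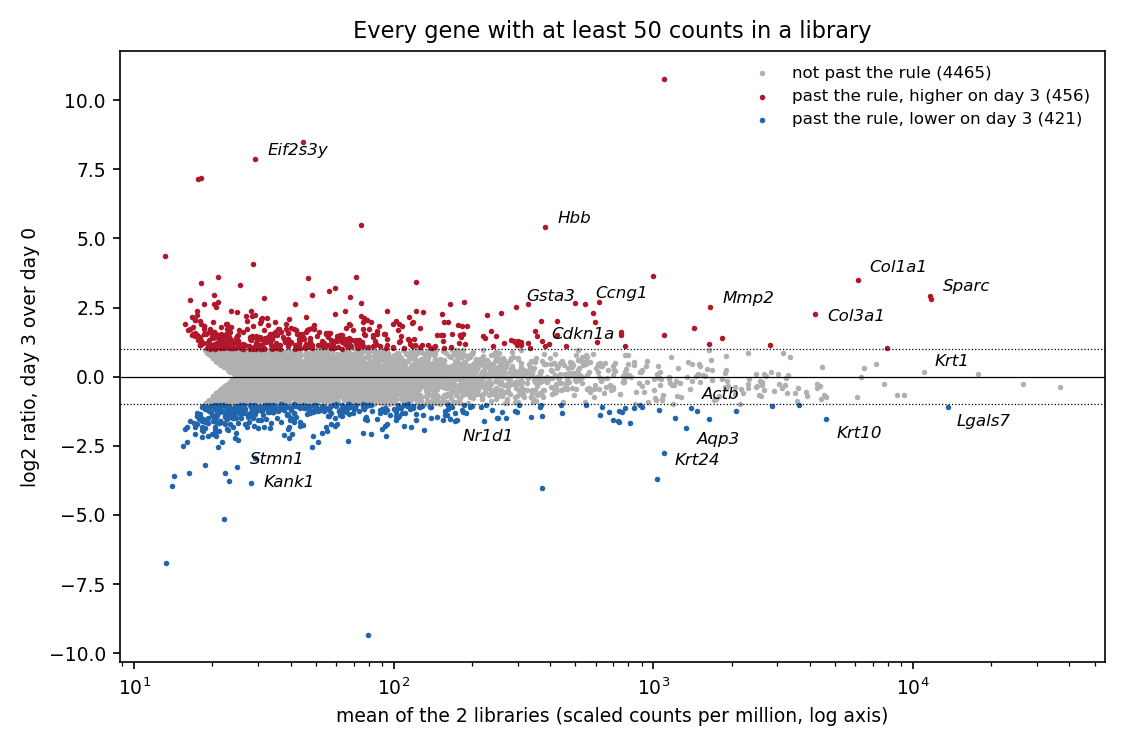
Each point is a gene with at least 50 counts in 1 of the 2 libraries; the x axis gives the mean of its scaled level in CPM (log axis) and the y axis the log2 ratio, day 3 over day 0, with dotted lines at 2-fold. The 456 red genes are higher and the 421 blue genes lower on day 3, with Col1a1 at 3.50 and Krt24 at -2.75. The uppermost point, at 10.78, is the row that holds the first cytochrome oxidase II tag, and the lowermost, at -9.33, a row that holds the day 0 form of a cytochrome oxidase I tag.

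The 15 highest genes with an established symbol included 4 of the dermal matrix or its processing, Col1a1, Lox, Sparc and Fmod, which are described below. The others were of many kinds. C1qtnf6, a C1q and TNF related secreted protein gene, had 174 counts at day 3, against 14 at day 0, a ratio of 12 (7.17 to 23.1). Sts, the steroid sulfatase gene, had 294 counts at day 3, against 6 at day 0, and 461 on day 6 and 27 on day 9, so that days 0 and 9 were both low. Haemoglobin gene Hbb had 1510 counts at day 3, against 35 at day 0, a ratio of 42.3 (30.7 to 61.9). Klra17, a killer-cell lectin-like receptor gene, had 109 counts at day 3, against 6 at day 0, and Itm2a, an integral membrane protein gene, 266 counts at day 3, against 21 at day 0. Adipoq, the adiponectin gene, Cd163, a macrophage scavenger receptor gene, Mmp27, a metalloproteinase gene, Defb4, a beta-defensin gene, and the p53 target Bbc3 complete the set with Eif2s3y.

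The 15 lowest genes contained 3 whose most abundant tag was at 3 copies or fewer in the day 3 library, Kank1, Mcm4 and Aplp2. Kank1, which encodes a regulator of actin, had 7 counts at day 3, against 106 at day 0, and its most abundant tag had 0 copies on day 3 and 106 on day 0. Mcm4, a subunit of the replicative helicase, had 13 counts at day 3, against 104 at day 0, and its most abundant tag had 0 copies on day 3 and 98 on day 0 while its next tag had 6 copies in each. Aplp2, an amyloid precursor-like protein gene, had 68 counts at day 3, against 305 at day 0, and its main tag had 3 copies on day 3 and 227 on day 0, while the tag next in abundance had 38 on day 3 and 51 on day 0. Naprt1, a gene of NAD synthesis, had 44 counts at day 3, against 222 at day 0, and its second tag went the other way, with 22 copies on day 3 and 0 on day 0. The rest were read through a main tag seen in both libraries: Krt24, Stmn1, the COPII coat gene Sec24c, the glycine transporter gene Slc6a9, Rhov, Plk3, the chromatin remodeller gene Chd4, the heparan sulfate sulfotransferase gene Hs3st6, the mitochondrial creatine kinase gene Ckmt1b, the cartilage matrix gene Comp and Fam83h. Among these, Slc6a9 had 28 counts at day 3, against 131 at day 0, Chd4 63 counts at day 3, against 266 at day 0, and Comp 45 counts at day 3, against 176 at day 0. A most abundant tag at 3 copies or fewer in the other library was found in 11 of the 456 higher and 13 of the 421 lower genes.

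Where a gene had further tags they mostly moved with the main one. Of 133 higher genes whose other tags had at least 20 copies in 1 library, these tags went the same way in 128 and were at least 2-fold apart in 104, with 1 at least 2-fold the opposite way. Of 99 such lower genes, 95 went the same way, 65 at least 2-fold, and 3 at least 2-fold the opposite way. The other tags are part of the gene count that set the call, so some of this agreement is built in. Agreement among genes not past the rule was not tested. Tags of 1 gene also share the animal and the library, so the comparison bears on the tag assignment and not on the difference between animals.

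**Figure D2:**
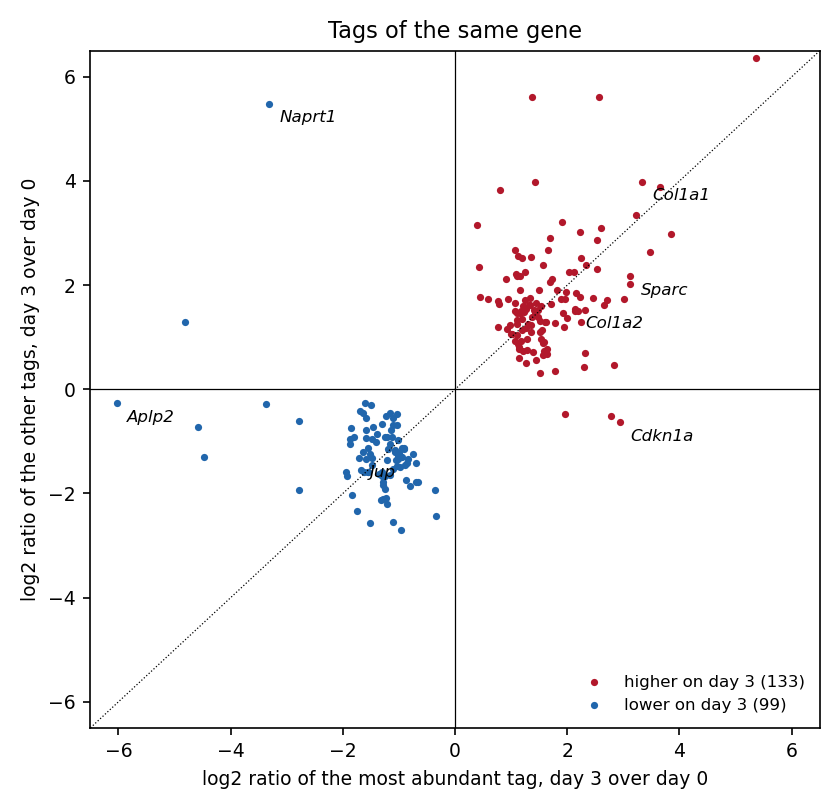
Each point is a gene past the size rule whose tags other than the most abundant had at least 20 copies in 1 library; the x axis is the log2 ratio of the most abundant tag and the y axis that of the sum of its other tags, both day 3 over day 0. Most of the 133 red and 99 blue genes lie in the quadrants where both go the same way, with Naprt1 far off and Cdkn1a, whose 2 main tags differ by 1 base, below the zero line.

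None of the 5 lists of dermal matrix genes had a member lower past the rule, and the fibrillar collagens lay furthest above 1. The lists were chosen with earlier results of these data known. The matrix gene Comp, which was lower with 45 counts at day 3, against 176 at day 0, is in none of them. In bulk tissue, more or fewer cells of a type and more or less RNA per cell cannot be told apart. Of the 6 measured fibrillar collagen genes, that is with a mean of at least 10 counts, 4 were higher and 0 lower past the rule, with a median log2 ratio of 2.01 beside -0.02 for all genes. Over all genes measured in this sense 8.76% were past the rule in either direction. Of these 10007 genes 5342 had the 50 counts that a call needs, and 16.4% of the 5342 were past the rule. Col1a1, the main chain of type I collagen, had 22815 counts at day 3, against 2001 at day 0, a ratio of 11.3 (10.8 to 11.9). Its partner chain Col1a2 had 4475 counts at day 3, against 1301 at day 0, a ratio of 3.42 (3.22 to 3.64). Col3a1, abundant in young and healing dermis, had 13937 counts at day 3, against 2909 at day 0, a ratio of 4.77 (4.58 to 4.96). Col5a2, which helps set fibril width, had 199 counts at day 3, against 91 at day 0. By its most abundant tag alone Col5a2 was not past the rule, at a ratio of 1.70, which left 3 of the 6 higher. The intervals of the 2 type I chains do not overlap.

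The other collagen classes lay closer to 1. Of 11 measured, 3 were higher, 0 lower, at a median log2 ratio of 0.72. Col6a2, a chain of the beaded filaments of type VI collagen, had 1073 counts at day 3, against 337 at day 0, and Col6a1 of the same molecule 824 counts at day 3, against 419 at day 0, a ratio of 1.96 (1.74 to 2.21) just under the rule. Col15a1 and Col16a1, which link fibrils to other matrix, had ratios of 2.07 (1.85 to 2.33) and 2.86 (2.42 to 3.40). The basement membrane chain Col4a1 had 137 counts at day 3, against 89 at day 0. Col7a1, the anchoring fibril collagen made largely by keratinocytes, had 161 counts at day 3, against 176 at day 0. Col17a1, a hemidesmosome collagen of basal keratinocytes, had 423 counts at day 3, against 788 at day 0, a ratio of 0.534 (0.473 to 0.602) that does not reach 2-fold.

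Collagen is hydroxylated inside the cell, trimmed outside it and then cross-linked, and the genes of these steps differed. Of 18 measured genes 6 were higher, 0 lower, at a median log2 ratio of 0.39. The cross-linking enzymes Lox, Loxl1, Loxl2 and Loxl3 were all higher. Lox had 215 counts at day 3, against 23 at day 0, Loxl1 59 counts at day 3, against 16 at day 0, Loxl3 165 counts at day 3, against 68 at day 0, and Loxl2 51 counts at day 3, against 2 at day 0, a ratio of 20.5 (6.67 to 215) on few counts. Bmp1, the proteinase that trims the procollagen tail, had 151 counts at day 3, against 33 at day 0, and its enhancer Pcolce 729 counts at day 3, against 264 at day 0, a ratio of 2.74 (2.38 to 3.17). The genes that act inside the cell did not pass the rule: the prolyl hydroxylase subunit genes P4ha1 and P4ha2 had ratios of 0.763 (0.370 to 1.52) and 1.07 (0.776 to 1.49), P4hb had 0.738 (0.611 to 0.888), the lysyl hydroxylase gene Plod1 had 0.941 (0.692 to 1.28), and Ppib, a proline isomerase gene, had 580 counts at day 3, against 914 at day 0.

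Elastic fibre genes were higher in 5 of 10 measured and lower in 0, with a median log2 ratio of 0.81. Eln, which encodes elastin, had 869 counts at day 3, against 175 at day 0, a ratio of 4.93 (4.20 to 5.84). The microfibril gene Mfap2 had 758 counts at day 3, against 159 at day 0, while its relative Mfap5 had 313 counts at day 3, against 316 at day 0. Efemp2 and Fbln5, fibulins that guide elastin assembly, had 101 (day 3) against 23 (day 0) and 173 (day 3) against 68 (day 0) counts, and Fbn1, which encodes fibrillin, 63 (day 3) against 30 (day 0). Fbn1 was not past the rule with a prior count of 5, at a ratio of 1.93, or by its most abundant tag alone, at 1.84. Either setting left 4 of the 10 higher.

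Among 24 measured proteoglycan and matrix glycoprotein genes, 8 were higher, 0 lower, at a median log2 ratio of 0.71. Sparc, a collagen-binding glycoprotein gene, had 41424 counts at day 3, against 5407 at day 0, a ratio of 7.62 (7.41 to 7.84). The small proteoglycans of collagen fibrils differed in size of change: Fmod had 2153 counts at day 3, against 331 at day 0, a ratio of 6.46 (5.76 to 7.29), Lum had 835 counts at day 3, against 337 at day 0, a ratio of 2.46 (2.17 to 2.81), Dcn had 21561 counts at day 3, against 10326 at day 0, a ratio of 2.08 (2.03 to 2.13), and Bgn had 984 counts at day 3, against 621 at day 0, a ratio of 1.58 (1.42 to 1.75) under the rule. Ogn, Postn and Mfap4 had ratios of 3.10 (2.26 to 4.39), 3.66 (2.61 to 5.33) and 3.70 (2.93 to 4.74). Fn1, the fibronectin gene, had 478 counts at day 3, against 367 at day 0, and Tgfbi, a keratinocyte and fibroblast adhesion protein gene, 2079 counts at day 3, against 2218 at day 0. Ecm1, which keratinocytes also make, had 216 counts at day 3, against 372 at day 0. The tenascin gene Tnc, a marker of wound matrix, had 0 counts at day 3, against 2 at day 0.

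Of 20 measured fibroblast marker genes 8 were higher, 0 lower, at a median log2 ratio of 0.86 and 19 of the 20 above 1. Summed over the list, the level was 10281 CPM on day 3 and 7078 on day 0. The intermediate filament gene Vim, a general marker of mesenchymal cells, had 3967 counts at day 3, against 3640 at day 0, a ratio of 1.08 (1.04 to 1.14), and the receptor gene Pdgfrb had 28 counts at day 3, against 27 at day 0. Higher members included the chemokine gene Cxcl12 with 127 counts at day 3, against 43 at day 0, the growth factor gene Igf1 with 58 counts at day 3, against 15 at day 0, the transcription factor gene Twist1 with 204 counts at day 3, against 60 at day 0, and S100a4 with 277 counts at day 3, against 93 at day 0. The sum of the fibrillar collagens was 20603 CPM on day 3 and 3160 on day 0, a wider gap than that of the fibroblast markers. The part that the amount of fibroblast RNA has in the collagen ratios was not tested.

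Of the enzymes that cut matrix, 4 of 13 measured metalloproteinase and inhibitor genes were higher and 0 lower. Mmp2, the gelatinase of fibroblasts, had 5655 counts at day 3, against 975 at day 0, a ratio of 5.77 (5.39 to 6.18), and its inhibitor Timp2 had 3272 counts at day 3, against 1140 at day 0, a ratio of 2.85 (2.67 to 3.06). Mmp14, whose product activates the Mmp2 proenzyme, had 40 counts at day 3, against 73 at day 0, a ratio of 0.548 (0.361 to 0.812). The inflammatory proteinase genes Mmp3 and Mmp9 had 35 (day 3) against 36 (day 0) and 5 (day 3) against 2 (day 0) counts.

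The ligands and readouts of TGF-beta, the growth factor linked to radiation fibrosis, showed no common direction. In the TGF-beta and BMP pathway list 1 of 22 measured genes was higher and 1 lower, at a median log2 ratio of 0.19, so that its 9.09% past the rule is near the 8.76% of all measured genes. Tgfb1 had 49 counts at day 3, against 56 at day 0, Tgfb2 40 counts at day 3, against 34 at day 0, and Tgfb3 33 counts at day 3, against 10 at day 0. Ctgf, a fibroblast target of the pathway, had 833 counts at day 3, against 575 at day 0, a ratio of 1.44 (1.29 to 1.61). The inhibitory Smad7 had 39 counts at day 3, against 61 at day 0. Fstl1, a secreted follistatin-like gene, was the higher member with 339 counts at day 3, against 94 at day 0. In the Wnt list 1 of 20 was higher, Wisp2, a matricellular gene of fibroblasts with 317 counts at day 3, against 61 at day 0, and 1 lower, the ligand gene Wnt4 with 41 counts at day 3, against 93 at day 0. This is 10% of the Wnt list, also near the 8.76% of all measured genes.

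**Figure D3:**
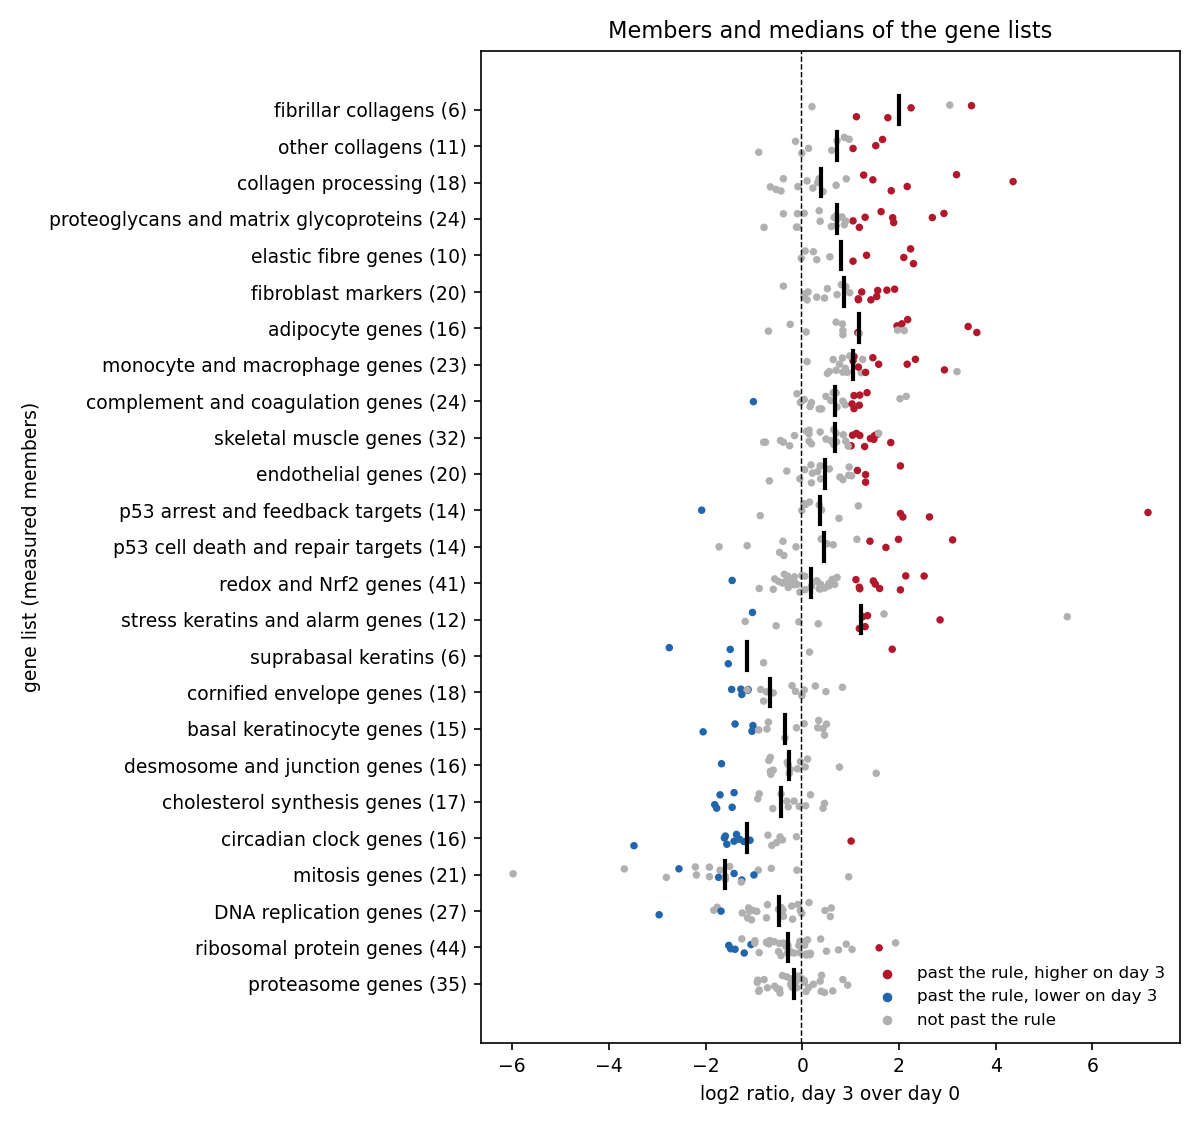
Each point is a measured member of a gene list (number of measured members in parentheses) at its log2 ratio, day 3 over day 0; red and blue points are past the size rule, grey points are not, black bars are list medians and the dashed line is the median of all genes. Matrix, fibroblast, fat and macrophage lists lie right of the line, with the fibrillar collagens at a median of 2.01, and the mitosis, clock and suprabasal keratin lists lie left of it, at -1.59, -1.15 and -1.14.

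Lists that mark other cells beneath the epidermis differed in how many members were past the rule. All 23 measured monocyte and macrophage genes had ratios above 1, and 9 were past the rule, with a median log2 ratio of 1.05. Their summed level was 2016 CPM on day 3 and 861 on day 0. Aif1, a calcium-binding protein gene of macrophages, had 436 counts at day 3, against 85 at day 0, a ratio of 5.08 (4.04 to 6.52). Folr2 and Cd163, which mark tissue-resident macrophages, had 377 (day 3) against 83 (day 0) and 173 (day 3) against 22 (day 0) counts, and Cd68 178 (day 3) against 64 (day 0). Neutrophil genes had few counts: none of 5 measured was past the rule, 4 had ratios above 1 and 1 below, the median log2 ratio was 0.98, and the sums were 93.3 CPM on day 3 and 61.4 on day 0. S100a9 had 43 counts at day 3, against 34 at day 0 and S100a8 17 counts at day 3, against 39 at day 0. The oxidase subunit genes Ncf1 and Ncf4, which macrophages share, had 47 (day 3) against 15 (day 0) and 48 (day 3) against 24 (day 0) counts, Lcn2 22 (day 3) against 0 (day 0), and the receptor gene Csf3r 0 in both. None of 4 measured lymphocyte genes was past the rule, with 3 above 1 and 1 below and sums of 334 CPM on day 3 and 276 on day 0, mostly Thy1, which fibroblasts share, with 479 counts at day 3, against 347 at day 0. Below the level counted as measured, the T cell receptor gene Cd3e had 2 counts at day 3, against 10 at day 0. Of 7 measured mast cell genes 2 were higher, Cpa3 with 376 counts at day 3, against 98 at day 0 and Tpsab1 with 140 counts at day 3, against 52 at day 0, and 1 lower, Hpgds, a prostaglandin synthase gene, with 20 counts at day 3, against 65 at day 0. Cma1 and Tpsb2 had ratios of 1.29 (0.962 to 1.74) and 0.983 (0.714 to 1.35).

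Vessel genes were higher in 4 of 20 measured and lower in 0, with a median log2 ratio of 0.47 and sums of 1815 CPM on day 3 and 877 on day 0. Ccl21, the chemokine of lymphatic vessels, had 1378 counts at day 3, against 335 at day 0, a ratio of 4.09 (3.63 to 4.62), and the lymphatic receptor gene Lyve1, which some macrophages share, had 330 counts at day 3, against 132 at day 0. Sele, an adhesion gene of inflamed endothelium, had 165 counts at day 3, against 66 at day 0. The general endothelial gene Pecam1 had 24 counts at day 3, against 30 at day 0, Cdh5 2 counts at day 3, against 0 at day 0, and Kdr 0 counts at day 3, against 2 at day 0. Smooth muscle and pericyte genes were higher in 4 of 13, among them Tagln with 442 counts at day 3, against 178 at day 0, Acta2 with 1268 counts at day 3, against 589 at day 0 and the pericyte gene Rgs5 with 136 counts at day 3, against 55 at day 0. Of 3 measured red blood cell genes Hbb was past the rule, while Slc25a39, a mitochondrial carrier gene, had 136 counts at day 3, against 163 at day 0 and Bpgm, an enzyme gene of red cell glycolysis, 62 counts at day 3, against 66 at day 0. Below that level the haem synthesis gene Alas2 had 19 counts at day 3, against 0 at day 0.

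Some fat and muscle genes were higher too, in lists whose level also varied widely over the series. Of 16 measured adipocyte genes 6 were higher, 0 lower, at a median log2 ratio of 1.17 and sums of 5370 CPM on day 3 and 2871 on day 0. Adipoq had 448 counts at day 3, against 41 at day 0, the fatty acid carrier gene Fabp4 516 counts at day 3, against 132 at day 0, and Retn, which encodes resistin, 79 counts at day 3, against 6 at day 0. Of 32 measured skeletal muscle genes 10 were higher and 0 lower, 6 of the 32 had ratios below 1, and the list had sums of 8735 on day 3 and 5013 on day 0. Slow-fibre genes were among the higher, as Tnnt1 with 1051 counts at day 3, against 375 at day 0 and Myh7 with 173 counts at day 3, against 70 at day 0, and fast myosin Myh1 had 537 counts at day 3, against 730 at day 0, a ratio of 0.732 (0.653 to 0.819). In the day 6 library the muscle sum was 312 and the adipocyte sum 614. The part that the depth of tissue sampled has in the matrix, vessel and macrophage ratios was not tested.

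Complement genes, made by fibroblasts and macrophages in skin, were higher in 6 of 24 measured complement and coagulation genes and lower in 1, with a median log2 ratio of 0.67. The proteases of the first component were close to each other: C1s had 379 counts at day 3, against 185 at day 0 and C1r 743 counts at day 3, against 400 at day 0, ratios of 2.04 (1.71 to 2.44) and 1.85 (1.63 to 2.09). Their inhibitor gene Serping1 had 814 counts at day 3, against 320 at day 0, a ratio of 2.53 (2.22 to 2.89). The lower member was F3, the tissue factor gene, with 67 counts at day 3, against 135 at day 0, and it was not past the rule under scaling to gene count totals, at a ratio of 0.502, or to all tags seen at least 2 times, at 0.534. Among 25 measured interferon response genes 2 were higher, Irf7 with 95 counts at day 3, against 18 at day 0 and Ifit2 with 63 counts at day 3, against 25 at day 0, and 0 lower. This is 8% of the list beside 8.76% of all measured genes, but only 9 of the 25 had the 50 counts that a call needs. Of the 25 interferon response genes 18 had ratios above 1 and 7 below, at a median log2 ratio of 0.44.

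Turning to the p53 pathway, 4 of 14 measured arrest and feedback genes were higher, 1 lower, at a median log2 ratio of 0.37. Ccng1, a cyclin G gene that is a sensitive p53 target, had 1885 counts at day 3, against 303 at day 0, a ratio of 6.18 (5.48 to 7.01). Cdkn1a, which encodes the cyclin-dependent kinase inhibitor p21, had 1197 counts at day 3, against 291 at day 0, a ratio of 4.09 (3.60 to 4.67) over all of its tags. The 2 Cdkn1a tags printed above together had a ratio of 4.20 (3.67 to 4.84). Mdm2, the ligase that degrades p53, had 129 counts at day 3, against 30 at day 0, a ratio of 4.22 (2.86 to 6.60), and its 3 most abundant tags were each higher on day 3, with 66, 35 and 26 copies against 10, 11 and 3 on day 0. Plk2, a polo-like kinase gene and p53 target, had 71 counts at day 3, against 0 at day 0, all in 1 tag. With the day 0 library given 3 counts, Plk2 was 23.6-fold higher. Its relative Plk3 was 4.23-fold lower (2.88 to 6.55), with 31 counts at day 3, against 132 at day 0. The antiproliferative gene Btg2 had 313 counts at day 3, against 245 at day 0, a ratio of 1.27 (1.07 to 1.51).

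Of 14 measured p53 targets of cell death and repair 4 were higher, 0 lower, at a median log2 ratio of 0.45. Bbc3, which encodes the death activator PUMA, had 204 counts at day 3, against 23 at day 0, a ratio of 8.66 (5.72 to 14.2), and Bax, the pore-forming death effector gene, 128 counts at day 3, against 38 at day 0, a ratio of 3.32 (2.32 to 4.95). Phlda3, an inhibitor of the kinase AKT, had 653 counts at day 3, against 246 at day 0, and Ephx1, an epoxide hydrolase gene, 503 counts at day 3, against 126 at day 0. The death receptor gene Fas had 11 counts at day 3, against 7 at day 0. Perp, a p53 target that is also a desmosome gene of the epidermis, had 5449 counts at day 3, against 7160 at day 0, a ratio of 0.757 (0.731 to 0.784). The survival genes of the same family did not pass the rule: Mcl1 had a ratio of 1.22 (0.959 to 1.55) and Bcl2l1 one of 0.619 (0.435 to 0.867).

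Cell division genes lay on the other side. Of 21 measured mitosis genes 20 had ratios below 1, with 5 lower and 0 higher past the rule and a median log2 ratio of -1.59. Their summed level was 240 CPM on day 3 and 599 on day 0, so single genes rest on few counts. Stmn1, which destabilises microtubules, was 5.87-fold lower (3.98 to 9.24), with 28 counts at day 3, against 166 at day 0. Cdk1, the kinase that starts mitosis, had 37 counts at day 3, against 88 at day 0, a ratio of 0.422 (0.277 to 0.621), and its subunit gene Cks2 31 counts at day 3, against 83 at day 0. The related Cks1b had 127 counts at day 3, against 136 at day 0. Birc5, which encodes survivin, had 16 counts at day 3, against 54 at day 0, and the proliferation marker Mki67 10 counts at day 3, against 31 at day 0, too few for the rule. The tubulin gene Tubb5 was past the rule only narrowly, at a ratio of 0.4987. It was not past the rule with DESeq2 size factors, at 0.5002, or with gene count totals, at 0.5049, which left 4 of the 21 lower. DNA replication genes were nearer to 1, with 2 of 27 lower, 0 higher and a median log2 ratio of -0.49. Their 7.41% past the rule lies below the 8.76% of all measured genes. The call of Mcm4 rests on its most abundant tag, and its other tags together had 13 copies on day 3 and 6 on day 0. Beside Mcm4, the lower one was Rrm1, a ribonucleotide reductase subunit gene, with 32 counts at day 3, against 103 at day 0. Pcna, the sliding clamp gene that is also a p53 target, had 137 counts at day 3, against 186 at day 0, and Mcm2 and Mcm7 had ratios of 0.942 (0.634 to 1.40) and 1.10 (0.824 to 1.48). The early cell cycle genes Ccnd1 and Cdk4 had ratios of 0.654 (0.583 to 0.733) and 0.602 (0.533 to 0.677), and the kinase inhibitor gene Cdkn2b was higher, with 101 counts at day 3, against 45 at day 0.

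Promoters of mitosis genes are known to carry CCAAT boxes and a cell cycle element spelled TTTGAA, through which p53 acts by way of p21 and a repressor complex. The RefSeq promoter table, build GRCr8, gives 250 bases before to 50 after each gene start, and 19 of the 21 measured mitosis genes matched it. The windows of Cdk1 and Cks2, the pair of partner genes that were lower past the rule, are shown 5′ to 3′ on the gene's strand, with CCAAT and TTTGAA on either strand in capitals.
Cdk1, chr20:19265043-19265342, + strand: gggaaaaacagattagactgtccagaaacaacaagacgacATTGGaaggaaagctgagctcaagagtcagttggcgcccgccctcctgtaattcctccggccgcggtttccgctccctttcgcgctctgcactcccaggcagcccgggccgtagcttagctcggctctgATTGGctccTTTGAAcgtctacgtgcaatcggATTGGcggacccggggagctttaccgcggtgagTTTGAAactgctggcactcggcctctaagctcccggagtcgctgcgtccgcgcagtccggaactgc
Cks2, chr17:13727470-13727769, - strand: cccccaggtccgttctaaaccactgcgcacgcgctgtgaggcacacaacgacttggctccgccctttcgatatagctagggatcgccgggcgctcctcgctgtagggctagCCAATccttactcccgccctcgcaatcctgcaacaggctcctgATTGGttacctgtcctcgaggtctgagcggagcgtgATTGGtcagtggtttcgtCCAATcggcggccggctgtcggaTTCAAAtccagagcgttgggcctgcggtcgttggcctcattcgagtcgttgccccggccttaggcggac
CCAAT, or its reverse ATTGG, stood in the windows of 16 of the 19 genes (84.2%), against 37.5% of all 33469 windows in the table. TTTGAA, or its reverse TTCAAA, stood in 14 of the 19 (73.7%), against 18.3% of all windows. A gene was counted if any of its windows held the motif, while the share of all was taken over single windows. The Cdk1 window held CCAAT 3 times and TTTGAA 2 times, and the Cks2 window held them 4 times and 1 time. Stmn1 and Tubb5, also lower past the rule, had CCAAT but no TTTGAA. Cks1b, which was not past the rule, had both. A match of letters is a description of the window and shows no binding.

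Clock genes were mostly lower on day 3. Of 16 measured circadian clock genes 9 were lower and 1 higher, with a median log2 ratio of -1.15. The clock works as a loop in which BMAL1 and CLOCK switch on genes through CACGTG, and products of those genes repress them. The output repressor gene Ciart, listed in the files as RGD1566380, had 7 counts at day 3, against 83 at day 0, 11.2-fold lower (5.53 to 30.6). Nr1d1, which encodes the repressor REV-ERB alpha, had 172 counts at day 3, against 516 at day 0, 3.01-fold lower (2.53 to 3.60). Bhlhe40 and Bhlhe41, repressor genes of the same loop, had 124 (day 3) against 365 (day 0) and 21 (day 3) against 65 (day 0) counts. The output factor gene Dbp had 519 counts at day 3, against 1269 at day 0, a ratio of 0.407 (0.367 to 0.451). The higher one was Arntl, which encodes BMAL1, with 53 counts at day 3, against 26 at day 0, a ratio of 2.01 (1.25 to 3.38) that was 1.86 with a prior count of 5. Arntl and its repressor Nr1d1 thus lay on opposite sides of 1. Since no collection hour is labelled, time of day and irradiation cannot be told apart here.

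The window of Ciart, from the same table, carries CACGTG 3 times, and here CACGTG alone is in capitals.
Ciart, chr2:186112197-186112496, - strand: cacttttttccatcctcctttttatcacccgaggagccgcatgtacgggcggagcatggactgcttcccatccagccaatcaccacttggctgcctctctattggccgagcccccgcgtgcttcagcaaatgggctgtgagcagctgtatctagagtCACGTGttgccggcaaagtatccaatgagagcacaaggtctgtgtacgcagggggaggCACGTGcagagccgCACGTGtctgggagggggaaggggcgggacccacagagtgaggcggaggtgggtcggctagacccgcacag
Of 13 measured clock genes found in the table, 5 had CACGTG in a window (38.5%), namely Bhlhe40, Bhlhe41, Ciart, Nr1d1 and Tef, against 6.42% of all windows. CCAAT stood in 10 of the 13 (76.9%), beside 84.2% of the mitosis genes and 37.5% of all windows, and TTTGAA in 0 of the 13. Genes and windows were counted as for the mitosis genes.

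In the epidermis the suprabasal keratins diverged, and the summed level of their list was 14699 CPM on day 3 and 19764 on day 0. Of 6 measured genes 3 were lower and 1 higher, with a median log2 ratio of -1.14. Krt10 had 4763 counts at day 3, against 13717 at day 0, 2.89-fold lower (2.80 to 2.99), while Krt1, its partner in the same filaments, had 23380 counts at day 3, against 21013 at day 0, a ratio of 1.11 (1.09 to 1.13). Krt2 of the upper layers had 285 counts at day 3, against 798 at day 0, and Krt24 573 counts at day 3, against 3841 at day 0, 6.73-fold lower (6.17 to 7.37). Krt9 was the higher one, with a ratio of 3.63 (3.04 to 4.38). Krt1 and Krt10, which pair in filaments, thus lay on different sides of 1. Among stress keratins, the row described as keratin 6A, LOC683313, had 1071 counts at day 3, against 432 at day 0, Krt17 246 counts at day 3, against 499 at day 0 and Krt16 0 in both libraries. Keratin rows can share reads between near-identical family members, and the assignment of their tags is the authors'.

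Of 15 measured basal keratinocyte genes 4 were lower and 0 higher, with a median log2 ratio of -0.36 and sums of 2425 CPM on day 3 and 3417 on day 0. The part that a smaller share of epidermal RNA in the day 3 library has in the epidermal ratios was not tested. Krt14 had 144 counts at day 3, against 295 at day 0, 2.06-fold lower (1.68 to 2.53), and Krt14 and Plec fell short of 2-fold when libraries were scaled to all tags seen at least 2 times, at ratios of 0.524 and 0.530, or to totals without the 20 most abundant genes. That left 2 of the 15 lower in either scaling. The row described as keratin 5, LOC100910084, is in neither this list nor its sums, although its level alone exceeds them. It had 7736 counts at day 3, against 9331 at day 0, a ratio of 0.825 (0.800 to 0.850). Krt15 had 643 counts at day 3, against 453 at day 0, a ratio of 1.41 (1.25 to 1.60). Cdh3, which encodes P-cadherin, had 19 counts at day 3, against 80 at day 0, Sdc1, the syndecan of epithelial cells, 694 counts at day 3, against 1810 at day 0, and Plec, which ties keratin to hemidesmosomes, 404 counts at day 3, against 818 at day 0. The integrin genes Itga6 and Itgb4 had ratios of 1.03 (0.827 to 1.29) and 1.34 (1.23 to 1.47). The master regulator gene Tp63 had 513 counts at day 3, against 845 at day 0, a ratio of 0.604 (0.540 to 0.675).

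Junction genes were mostly a little below 1, with 12 of 16 below 1. Past the rule 1 was lower and 0 higher, 6.25% of the list beside 8.76% of all measured genes. The lower one was Jup, which encodes plakoglobin, with 781 counts at day 3, against 2473 at day 0, 3.18-fold lower (2.94 to 3.45). Its desmosome partners were less far off: Dsp, the desmoplakin gene, had 14117 counts at day 3, against 16992 at day 0, a ratio of 0.827 (0.808 to 0.845), and Pkp1 3993 counts at day 3, against 6257 at day 0, a ratio of 0.635 (0.610 to 0.661). The gap junction gene Gjb2 had 625 counts at day 3, against 364 at day 0, a ratio of 1.71 (1.5 to 1.95).

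Of 18 measured cornified envelope genes 5 were lower and 0 higher, with a median log2 ratio of -0.67. The cross-linking transglutaminases Tgm1 and Tgm3 had 111 (day 3) against 304 (day 0) and 979 (day 3) against 2129 (day 0) counts, and the envelope precursor gene Sprr1a 307 (day 3) against 739 (day 0). Calml3, a calmodulin-like gene of differentiating keratinocytes, had 1756 counts at day 3, against 4166 at day 0. Flg, the filaggrin gene, had 137 counts at day 3, against 247 at day 0, a ratio of 0.553 (0.445 to 0.683). Others did not follow: Lce1f had 1536 counts at day 3, against 1088 at day 0, the protease inhibitor gene Cst6 1505 counts at day 3, against 842 at day 0, and Ppl, the periplakin gene, 1623 counts at day 3, against 1572 at day 0. Lgals7 and Aqp3, abundant epidermal genes outside this list, were lower as well. Lgals7, the galectin of stratified epithelia, had 17450 counts at day 3, against 37501 at day 0, 2.16-fold lower (2.12 to 2.20), and Aqp3, the water and glycerol channel of keratinocytes, 1176 counts at day 3, against 4197 at day 0, 3.59-fold lower (3.36 to 3.83). Of 24 measured epidermal transcription factor genes 2 were lower, Klf4, needed for the skin barrier, with 1052 counts at day 3, against 2328 at day 0 and Tfap2b with 157 counts at day 3, against 463 at day 0, and 0 higher, a share of 8.33% that is near that of all measured genes, 8.76%.

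**Figure D4:**
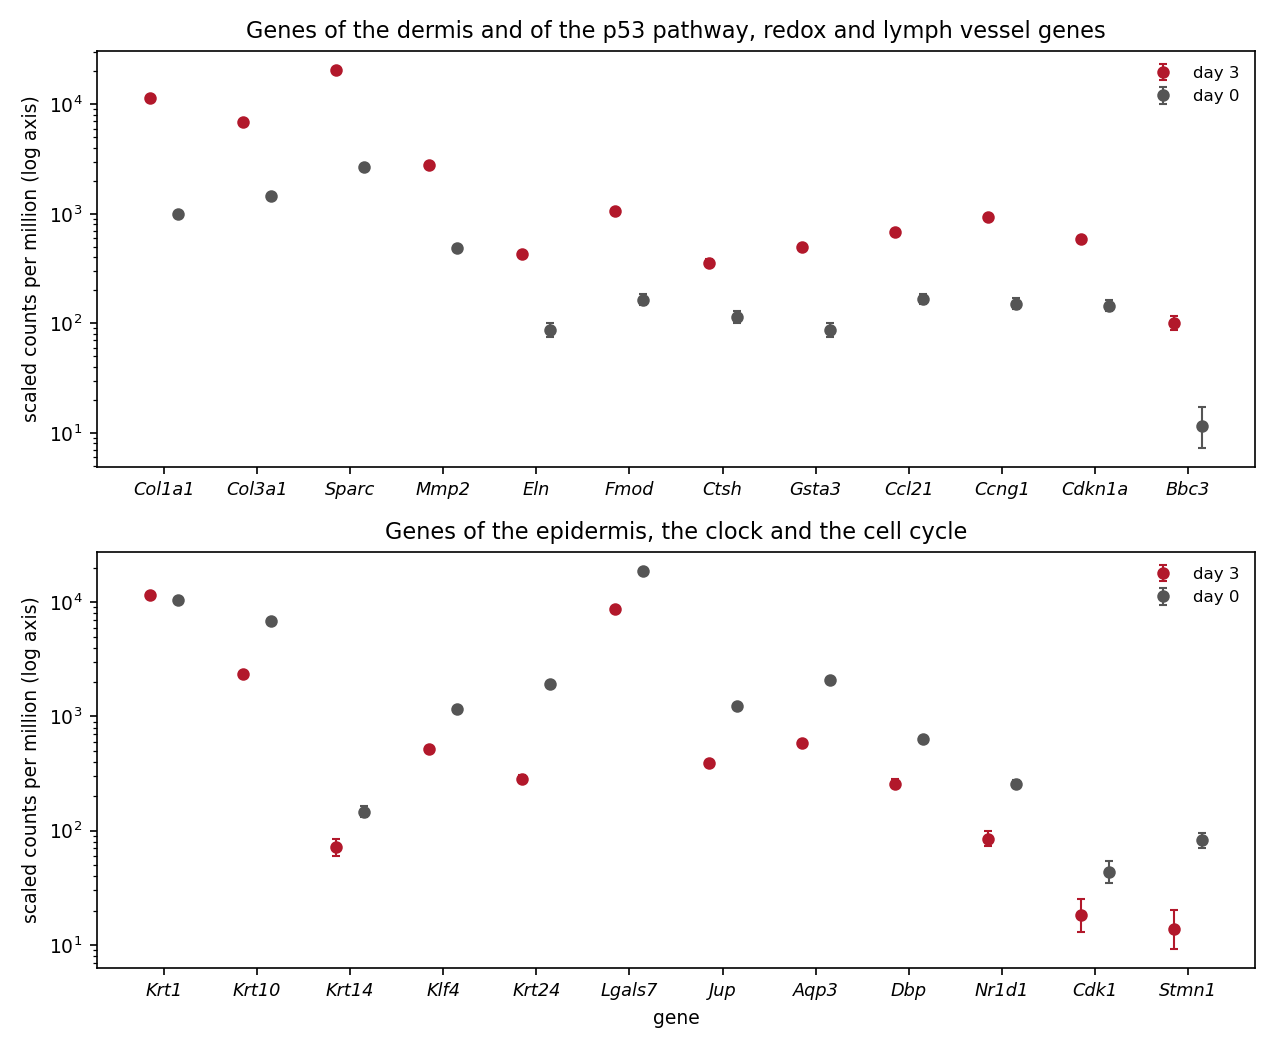
Scaled level in CPM (log axis) of 24 genes in the day 3 library (red, left) and the day 0 library (grey, right); bars are exact 95% Poisson intervals and cover counting error only. In the upper panel all 12 genes are higher on day 3, and in the lower panel Krt1 is close in both libraries while the other 11 are lower on day 3.

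Proteases did not follow the structural genes. Of 30 measured epidermal protease and serpin genes 7 were higher, 1 lower, at a median log2 ratio of 0.02. The higher ones included lysosomal cathepsins: Ctsl1 had 1269 counts at day 3, against 447 at day 0, Ctsh 722 counts at day 3, against 229 at day 0, Ctsk 501 counts at day 3, against 171 at day 0 and Ctsz 66 counts at day 3, against 26 at day 0. Macrophages and fibroblasts also express these. The kallikrein gene Klk6 had 97 counts at day 3, against 35 at day 0, and the other kallikreins Klk7 and Klk8 ratios of 1.5 (1.34 to 1.68) and 0.753 (0.686 to 0.827). The lower one was Serpinb5, the epithelial serpin maspin, with 812 counts at day 3, against 1731 at day 0, which was not past the rule when scaled to all tags seen at least 2 times, at a ratio of 0.503.

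Alarm genes of the injured epidermis were mixed at this time. The list of stress keratins and alarm genes had 12 measured members, 5 of them higher and 1 lower, at a median log2 ratio of 1.22. Defb4 had 112 counts at day 3, against 15 at day 0, the cytokine genes Il33 and Il36g 98 (day 3) against 38 (day 0) and 70 (day 3) against 29 (day 0) counts, and the haem oxygenase gene Hmox1 60 (day 3) against 26 (day 0). The alarmin genes S100a8 and S100a9 did not pass, as given above. Summed over the list, the level was 1245 CPM on day 3 and 1017 on day 0, beside 3951 on day 6 and 40178 on day 9. In the cytokine and chemokine list 3 of 23 were higher, Ccl21, Cxcl12 and Ccl6, and 1 lower, the decoy receptor gene Il1r2 with 57 counts at day 3, against 186 at day 0. In the NF-kappaB list 2 of 17 were lower and 0 higher: the subunit genes Rela and Nfkb1, with 59 (day 3) against 140 (day 0) and 107 (day 3) against 247 (day 0) counts. This is 11.8% of the list beside 8.76% of all measured genes, and 9 of the 17 had the 50 counts that a call needs. The feedback inhibitor gene Nfkbia had 262 counts at day 3, against 510 at day 0, a ratio of 0.512 (0.439 to 0.594).

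Immediate early genes, which answer handling and wounding within minutes, were lower in 5 of 27 measured and higher in 0, with a median log2 ratio of -0.22. Fosb had 5 counts at day 3, against 60 at day 0, Jund 45 counts at day 3, against 124 at day 0, Maff 26 counts at day 3, against 90 at day 0 and Zfp36 29 counts at day 3, against 65 at day 0, with Klf4 as the fifth. Fos and Jun had 44 (day 3) against 56 (day 0) and 160 (day 3) against 148 (day 0) counts, and Junb 155 (day 3) against 94 (day 0).

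Redox genes contained 9 higher and 1 lower of 41 measured, with a median log2 ratio of 0.19. Gsta3, a glutathione transferase gene, had 1012 counts at day 3, against 175 at day 0, a ratio of 5.74 (4.90 to 6.79), and Gstt1 of another class 61 counts at day 3, against 21 at day 0. The glutathione peroxidase genes Gpx3, Gpx7 and Gpx8 had 55 (day 3) against 12 (day 0), 100 (day 3) against 24 (day 0) and 51 (day 3) against 18 (day 0) counts. Sepp1, which encodes the selenium carrier selenoprotein P, had 2276 counts at day 3, against 748 at day 0. Mgst3, a microsomal transferase gene, was the lower one, with 159 counts at day 3, against 432 at day 0. Among targets of NRF2, the sensor of oxidative stress, Hmox1 was higher as given above, while Nqo1 had 391 counts at day 3, against 498 at day 0, a ratio of 0.781 (0.682 to 0.894), and Nfe2l2, the gene of NRF2 itself, 250 counts at day 3, against 268 at day 0.

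Among lipid genes, those of cholesterol synthesis and those of fatty acid and barrier lipid synthesis were counted separately. Of 17 measured cholesterol synthesis genes 5 were lower and 0 higher, with a median log2 ratio of -0.44. Hmgcs1, an early enzyme of the pathway, had 364 counts at day 3, against 989 at day 0, and Fdps, Mvd and Dhcr7 further along had 104 (day 3) against 363 (day 0), 54 (day 3) against 184 (day 0) and 115 (day 3) against 305 (day 0) counts. Idi1 had 80 counts at day 3, against 76 at day 0. Scap, the sterol sensor partner of SREBP, had 54 counts at day 3, against 176 at day 0. Of 39 measured fatty acid and barrier lipid genes 2 were higher, 1 lower, at a median of -0.01, and this 7.69% past the rule lies below the 8.76% of all measured genes. Scd1, the stearoyl desaturase gene that adipocytes also express, had 231 counts at day 3, against 78 at day 0, Fasn 300 counts at day 3, against 249 at day 0, and Alox12b, a lipoxygenase gene of the barrier, 319 counts at day 3, against 556 at day 0.

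Among lists of genes that most cells use, none of the 35 measured proteasome genes was past the rule in either direction, with a median log2 ratio of -0.17. Of 55 nuclear respiratory chain genes 2 were higher, 2 lower, which is 7.27% of the list, and the median was 0.15. Of 44 ribosomal protein genes 5 were lower and 1 higher, with a median of -0.30. This is 13.6% past the rule, beside 8.76% of all measured genes. A call needs 50 counts, which 37 of the 44 had, against 5342 of all 10007 measured genes. Of those 5342 genes 16.4% were past the rule, so the 13.6% does not place this list above the background. Rps13 had 1282 counts at day 3, against 3556 at day 0 and Rps19 1286 counts at day 3, against 2936 at day 0, whereas Rpl19 had 4820 counts at day 3, against 2845 at day 0 and Rps3a 6022 counts at day 3, against 5335 at day 0. Rpl3l, a muscle form, was the higher one with 119 counts at day 3, against 39 at day 0. Ribosomal genes have many processed copies, so their tags are among the less certain. The common reference genes Gapdh and Ywhaz had ratios of 0.850 (0.802 to 0.900) and 1.03 (0.984 to 1.09), while Actb, the cytoplasmic actin gene, was 2.18-fold lower (2.06 to 2.31), with 1774 counts at day 3, against 3848 at day 0.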

How the data were processed

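Each library of 21-base tags came as a gene table and a tag list. From their headers and values, the authors added up tags seen at least 2 times in a library to whole-number counts per gene, and the deposited column headed TPM holds these counts as CPM of all such tags. Those tags numbered 3247997 on day 3 and 3482882 on day 0, of which 60.6% and 56.9% lay in genes. The assembly, per the submitters' processing notes, was Rnor 6.0; the aligner is not given in the sources used here.

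Counts were scaled by edgeR 4.0.16 TMM factors over all 4 libraries, 1.023 for day 3 and 1.011 for day 0, and ratios had a prior count of 0.5. Intervals take tag copies as independent, although PCR copies are not. Count tests such as edgeR's quasi-likelihood test were not run, since 1 library a day gives no spread between animals. The procedure was tested on simulated data. A list median takes at least 5 measured members. To print a fold for a gene at 0 in 1 library, that library was given 3 counts. Such a fold is not a limit of the counting interval. Members and lists were chosen with earlier results of these data known. The named genes were the 15 highest and 15 lowest past the size rule that had 100 counts or more and an established symbol, the first 3 members of each list and up to 6 each way furthest from 1 with at least 50 counts, and a fixed set (Cdkn1a, Mdm2, Ccng1, Mki67, Krt14, Krt5, Krt10, Krt1, Col1a1, Col3a1, Sparc, Actb, Gapdh, Hbb, Eif2s3y); some members of the lists are counted but not reported here by name, and tag-pair genes and the abundant rows outside it were chosen after their values were seen. Alternatives covered scaling (with DESeq2 1.42.0 among others), count floor, interval, prior count, tags and identifiers.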

Additional observations from a re-analysis of the deposited data

Results flagged for a closer look

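Tags that the authors placed in no gene, which no comparison above uses, also differed between the libraries. Of 67395 such tags in either library, 2776 had at least 50 copies, and by the same size rule 335 of these were higher on day 3 and 314 lower, 23.4% in all beside 16.4% for genes. Of these, 15 of the higher tags had 0 copies on day 0 and 14 of the lower tags had 0 copies on day 3. Their identity was not analysed here.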

How the results depend on the processing

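The numbers of genes past the size rule follow the count floor. With at least 10 counts 1018 were higher and 900 lower, with no floor 1196 and 1033, and with at least 200 counts 147 and 125. When the interval bound itself had to reach 2-fold, 195 were higher and 141 lower, 6.29% of those tested. Scaling to all tags seen at least 2 times gave 533 higher and 317 lower, so 62.7% of those past the rule were higher beside 52% in the main setting, and moved the median of all genes to 0.09. The authors' value plus 1 gave 500 and 291, 63.2% higher. Leaving out rows with a switched tag pair gave 450 and 418, and leaving out genes whose most abundant tag was at 3 copies or fewer in the other library gave 445 and 408; both were chosen after seeing the data. The fibrillar collagen median was 2.25 with no floor, and the cornified envelope median -0.40 with at least 200 counts. The p53 arrest and mitosis medians moved by less than their members' counting intervals in the settings that gave a value. Of the 877 genes past the rule, 773 stayed past it when scaled to all tags, 828 without the 20 most abundant genes, 860 with gene count totals, 871 with DESeq2 size factors, 775 with a prior count of 5, 747 with the authors' value plus 1 and 781 by the most abundant tag alone. In these 7 settings 0 of the 877 ratios lay on the other side of 1. Only the most abundant tag alone could have moved a ratio that far, since the others rescale all genes slightly or draw ratios toward 1. Among 623 genes chosen by the naming rule, the ratio left its counting interval for 44, 6, 0, 0, 3, 46 and 43 in the same order. Krt17 was not past the rule when scaled to all tags, at a ratio of 0.529, which left 0 of the 12 stress keratin and alarm genes lower. Medians were not computed with fewer than 5 members, as for fibrillar collagens with at least 200 counts. No paired analysis was possible because each day has 1 library. Depth limits single mitosis, lymphocyte and neutrophil genes, many of which have few counts.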
